A study of Mus musculus with 4 samples.

Results

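The genes described here are the 10 listed genes of MHC class I presentation and of the immunoproteasome, chosen by symbol from the 54446 genes of the deposited table: H2-K1, H2-D1, B2m, Tap1, Tap2, Tapbp, Psmb8, Psmb9, Psmb10 and Nlrc5. MHC class I molecules are a heavy chain (H2-K1 or H2-D1 in these mice) held by the light chain that B2m encodes, and they carry short peptides of the cell's own proteins to the surface, where cytotoxic T cells read them. The peptides are cut by the proteasome, pumped into the endoplasmic reticulum by the transporter made of Tap1 and Tap2, and loaded with the help of tapasin, the product of Tapbp. Interferons switch on most of these genes, among them the catalytic subunits Psmb8, Psmb9 and Psmb10, which take the places of Psmb5, Psmb6 and Psmb7 in the immunoproteasome, and Nlrc5 encodes the transactivator of class I genes.

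RNA came from mammary gland cells of wild type C57BL/6 mice. In the study's cell preparation these were virgins aged 6 to 9 weeks, or other females at stages it specified. The cells were sorted by FACS as basal or luminal and grown in 3D in growth factor-reduced Matrigel with EGF. Baicalin is a flavonoid of Scutellaria root. Each label (basal cell, luminal cell) had 1 library with DMSO, the vehicle, and 1 library with 100 μM baicalin in the medium, which makes 4 libraries without replicates. Values are FPKM, the fragments of a gene divided by its exon length and by the library's total, between 19356099 and 20648782 fragments lay behind a library, and the stage of these mice, the number pooled and the passage sequenced were not given in the sources used here.

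The libraries are named by their labels throughout, because the labels went against the cell markers. All 10 basal markers, among them Krt5 and Krt14, were higher in the libraries labelled luminal than in those labelled basal, under DMSO and under baicalin, and 9 of 10 luminal markers were higher in the libraries labelled basal under both. The sort removed cells carrying CD31, CD45 or TER119, and Ptprc, the gene of CD45, had at most 0.0138 FPKM in any library. With 1 library in each group, neither the change at a label nor the difference between labels could be tested, and a fit averaging the treatment over both labels was not run. Changes are given as log2((FPKM + 1)/(FPKM + 1)), which understates the change of low genes, and FPKM ratios have 95% exact Clopper-Pearson intervals that cover counting error only. A gene was counted as past the threshold when its log2 change exceeded 1 in size. In bulk RNA, fewer cells of a type and less RNA per cell cannot be told apart.

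With baicalin, all 10 genes had lower FPKM than with DMSO in the pair of libraries labelled basal. All 10 had higher FPKM with baicalin in the pair labelled luminal. Of the 17787 genes above 0 in all 4 libraries, 49.1% were lower by value in the first pair and 45.6% higher in the second, and 17.7% had this opposite pattern. In the libraries labelled basal Psmb8 and Psmb10, at 3.03 and 3.09 times lower, were past the threshold, as were 3.33% of all genes in that direction. The immunoproteasome subunits and Nlrc5 had the lowest ratios there, and H2-K1, Tap1 and Tap2 the ratios nearest to 1.

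Promoter sequences were read to show what letters lie before the genes that moved together. RefSeq on GRCm38.p6 gave a start for 8 of the 10 genes, Tap2 and Nlrc5 not among them. Such a start can lie inside the gene by the GENCODE annotation, as for Psmb8 (34198195 in RefSeq, 34197721 in GENCODE). The same holds for H2-D1 (35263094 in RefSeq, 35262730 in GENCODE). For Tapbp the start lies farther inside (33919478 in RefSeq, 33915899 in GENCODE), so its window is far from the GENCODE start. The 250 bases before the start are printed 5′ to 3′ on the gene's strand for the 3 class I chains, for Psmb8 and Psmb10, which had the largest log2 changes, and for Tap1, whose window is mostly shared with Psmb9. Capitals mark matches to the motifs searched, which may lie on either strand.
H2-K1, chr17:34000348-34000597, minus strand: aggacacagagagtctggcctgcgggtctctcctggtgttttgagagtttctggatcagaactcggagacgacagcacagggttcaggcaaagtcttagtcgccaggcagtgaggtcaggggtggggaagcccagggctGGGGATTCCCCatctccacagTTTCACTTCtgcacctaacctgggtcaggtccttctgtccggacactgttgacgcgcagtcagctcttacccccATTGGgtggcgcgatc
H2-D1, chr17:35262844-35263093, plus strand: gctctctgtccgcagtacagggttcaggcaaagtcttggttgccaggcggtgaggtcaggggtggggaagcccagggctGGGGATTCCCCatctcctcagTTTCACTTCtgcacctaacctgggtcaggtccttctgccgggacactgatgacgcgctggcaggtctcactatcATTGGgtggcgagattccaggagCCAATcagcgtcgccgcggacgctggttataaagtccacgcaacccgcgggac
B2m, chr2:122147437-122147686, plus strand: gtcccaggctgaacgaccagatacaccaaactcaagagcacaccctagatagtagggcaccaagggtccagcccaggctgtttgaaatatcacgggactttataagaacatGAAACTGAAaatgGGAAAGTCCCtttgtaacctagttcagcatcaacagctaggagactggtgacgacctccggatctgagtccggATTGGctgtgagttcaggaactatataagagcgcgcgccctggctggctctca
Psmb8, chr17:34197945-34198194, plus strand: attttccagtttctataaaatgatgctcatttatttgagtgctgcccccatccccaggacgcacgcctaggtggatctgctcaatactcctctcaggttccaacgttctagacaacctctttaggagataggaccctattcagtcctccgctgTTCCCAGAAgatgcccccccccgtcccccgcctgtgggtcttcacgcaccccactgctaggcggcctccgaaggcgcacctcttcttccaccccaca
Psmb10, chr8:105938393-105938642, minus strand: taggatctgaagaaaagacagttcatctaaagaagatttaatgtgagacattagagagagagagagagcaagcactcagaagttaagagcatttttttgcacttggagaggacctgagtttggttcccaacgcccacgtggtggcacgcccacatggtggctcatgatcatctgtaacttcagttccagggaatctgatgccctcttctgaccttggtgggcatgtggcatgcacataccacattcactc
Tap1, chr17:34187306-34187555, plus strand: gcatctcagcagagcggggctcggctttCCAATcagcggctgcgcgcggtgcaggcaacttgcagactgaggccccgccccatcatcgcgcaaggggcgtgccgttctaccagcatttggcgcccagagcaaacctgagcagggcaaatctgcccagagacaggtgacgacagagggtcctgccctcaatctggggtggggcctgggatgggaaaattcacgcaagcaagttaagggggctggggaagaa

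The motifs were searched on both strands from 250 bases before to 50 bases after the start, in these 8 windows and in 32817 promoters of the table. The interferon-type pair GAAANNGAA was in B2m, at -139 to -131, and in 8.55% of all promoters. The same pair in the other order, GAANNGAAA, which was chosen after the sequences were seen, was in H2-K1 and H2-D1 and in 7.52% of all promoters. These matches overlapped no other motif searched, and each lay close to a match to the NF-kB motif, which was in H2-K1, H2-D1 and B2m and in 8.46% of all promoters. H2-K1 and H2-D1 shared a run of 47 identical bases that held the NF-kB match.

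Psmb8 was the gene with TTCNNNGAA, the GAS form of interferon-gamma promoter elements, at -97 to -89, beside 8.29% of all promoters. CCAAT was in 6 of the 8 windows (B2m, H2-D1, H2-K1, Psmb9, Tap1 and Tapbp) and in 37.4% of all promoters. TGACGTCA was in none of the 8 and in 1.79% of all promoters, and the Psmb10 window had no match to any motif searched. The Tap1 and Psmb9 windows lie on opposite strands and share 225 bases, chr17:34187331-34187555, so the CCAAT of Tap1 at -222 to -218 is that of Psmb9 at -8 to -4. A match is a description of letters, not a binding site.

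H2-K1 and H2-D1 encode the heavy chains that display peptide. H2-K1 had 170.3 FPKM with DMSO and 157 with baicalin in the libraries labelled basal, and 129.8 and 166 in those labelled luminal. H2-D1 had 156 and 129 FPKM in the libraries labelled basal and 113 and 136 in those labelled luminal. Both genes were thus highest in basal DMSO and lowest in luminal DMSO, although for H2-K1 the ratio of basal DMSO to luminal baicalin, 1.02, had an interval that held 1 (0.995 to 1.05). The baicalin to DMSO ratio of H2-K1 was 0.925 (0.899 to 0.951) at the basal label and 1.28 (1.24 to 1.32) at the luminal label. For H2-D1 it was 0.828 (0.802 to 0.856) and 1.20 (1.16 to 1.25). The heavy chains moved little at the basal label, with log2 changes of -0.11 and -0.27.

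The 2 heavy chain genes are alike, with 88.3% identical bases between their longest open reading frames, and reads can be split among the class I family. Of the 50-base words of their transcripts, 9.63% (H2-K1) and 12.8% (H2-D1) also lay in transcripts of other genes, chiefly H2-Q and H2-T genes and each other. Fragments summed over all 17 listed H2 chains do not depend on how reads were split among these genes, while an FPKM sum does, since each gene has its own length. The depth-scaled ratio of the summed fragments was 0.870 (0.854 to 0.886) at the basal label and 1.225 (1.20 to 1.25) at the luminal label. The summed FPKM was 429 in basal DMSO, 375 in basal baicalin, 322 in luminal DMSO and 394 in luminal baicalin, with ratios of 0.873 and 1.23. Both sums had the directions of H2-K1 and H2-D1 alone.

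B2m, the light chain needed by every class I heavy chain, had the highest level of the 10 genes in each library. It had 513 FPKM in basal DMSO and 308 in basal baicalin, and 299.5 in luminal DMSO and 429 in luminal baicalin. The ratio was 0.60 (0.580 to 0.621) at the basal label and 1.43 (1.38 to 1.48) at the luminal label, so B2m moved further than the heavy chains in both pairs. Basal baicalin and luminal DMSO were close, with a ratio of 1.03 (0.989 to 1.07). Per length, B2m FPKM over the summed H2-K1 and H2-D1 FPKM was 1.57 in basal DMSO and 1.07 in basal baicalin, and 1.23 and 1.42 at the luminal label. No other gene shared a 50-base word with B2m.

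**Figure D1:**
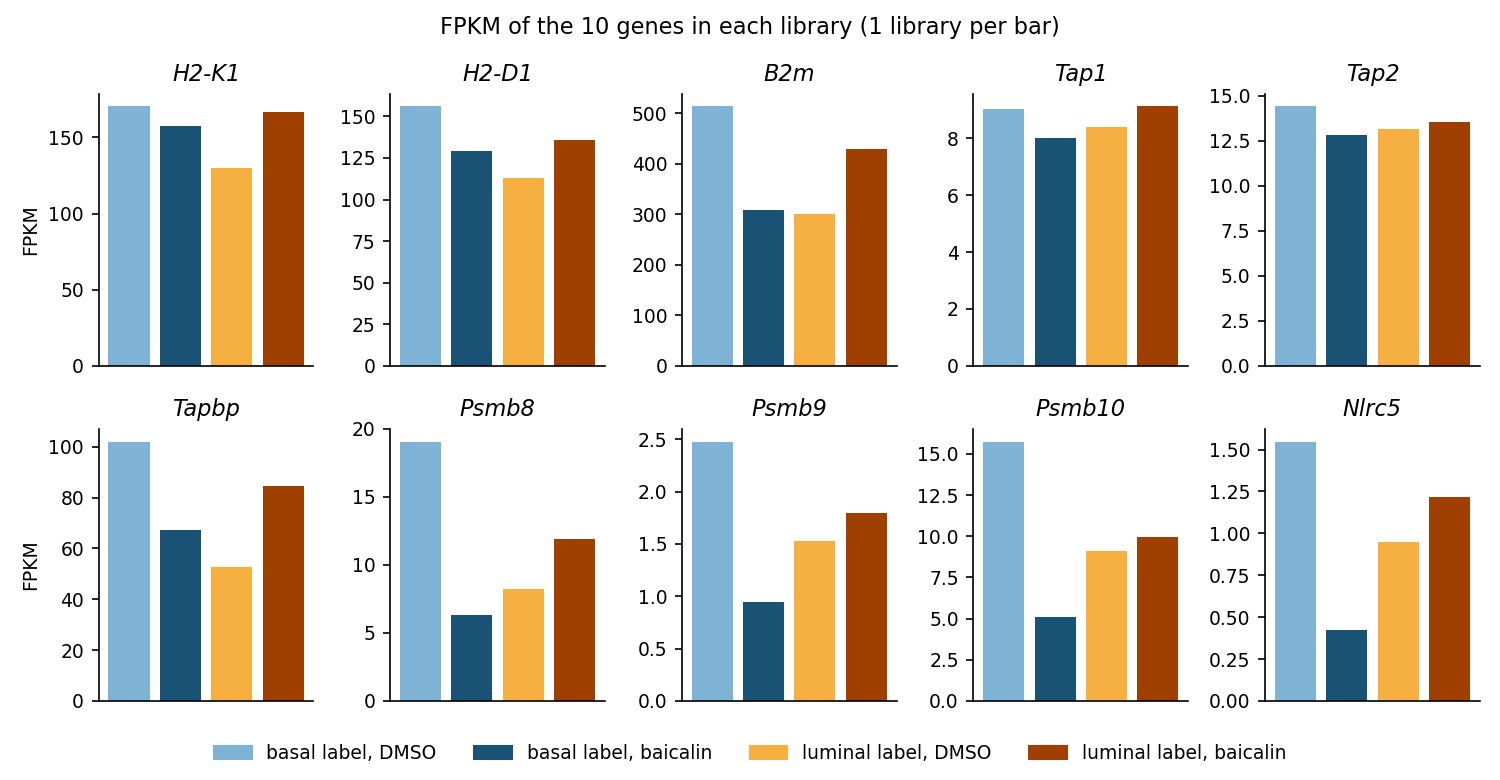
FPKM (vertical axes, each starting at 0) of the 10 genes in the 4 libraries, 1 library per bar, so there are no error bars. For 9 of the 10 genes basal DMSO has the highest bar, Tap1 being the exception, and B2m reaches 513 FPKM while Nlrc5 stays at or under 1.55.

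Tap1 and Tap2, which encode the chains of the peptide transporter, had flat levels. Tap1 had 9.01 FPKM in basal DMSO, 8.01 in basal baicalin, 8.40 in luminal DMSO and 9.12 in luminal baicalin. Tap2 had 14.4, 12.8, 13.1 and 13.6 FPKM in the same order. Neither gene had neighbouring libraries in the order of its levels whose ratio interval was clear of 1. The baicalin to DMSO ratios at the basal label, 0.889 (0.811 to 0.974) for Tap1 and 0.891 (0.817 to 0.972) for Tap2, lay just under 1. At the luminal label the ratios of 1.09 (0.992 to 1.19) and 1.03 (0.945 to 1.13) had intervals that held 1. The Tap1 to Tap2 ratio of FPKM stayed between 0.624 and 0.672 across the 4 libraries.

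Tapbp, whose product tapasin bridges the transporter and the empty class I molecule, moved much more than either transporter gene. It had 102 FPKM in basal DMSO, 67.3 in basal baicalin, 52.6 in luminal DMSO and 84.7 in luminal baicalin. All 3 steps in the order of its levels had intervals clear of 1. The ratio was 0.660 (0.636 to 0.684) at the basal label and 1.61 (1.55 to 1.68) at the luminal label, the highest of the 10 genes there. Tapbp overlaps Gm19412 on the opposite strand, which shared 20.3% of its 50-base words, and Zbtb22 on the same strand. Gm19412 had 3.61, 2.91, 2.15 and 2.97 FPKM in basal DMSO, basal baicalin, luminal DMSO and luminal baicalin. By value this was the order of Tapbp at a far lower level. Neither its fall at the basal label nor its rise at the luminal label had an interval clear of 1. Zbtb22, at 12.9, 14.2, 16.3 and 16.3 FPKM, did not have that order. The strand setting of the counting was not given in the sources used here, so reads of antisense partners cannot be told apart.

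The immunoproteasome subunits had lower ratios at the basal label than every other member but Nlrc5. Psmb8, which replaces Psmb5, had 19.1 FPKM in basal DMSO and 6.29 in basal baicalin, and 8.21 in luminal DMSO and 11.9 in luminal baicalin. Psmb10, which replaces Psmb7, had 15.7 and 5.09 FPKM at the basal label and 9.12 and 9.97 at the luminal label. Psmb9, which replaces Psmb6, was low throughout, at 2.48, 0.943, 1.52 and 1.80 FPKM. All 3 were highest in basal DMSO and lowest in basal baicalin, with both luminal libraries in between. The ratio at the basal label was 0.330 (0.295 to 0.368) for Psmb8, 0.323 (0.271 to 0.384) for Psmb10 and 0.381 (0.285 to 0.504) for Psmb9, which rests on 180 and 70 fragments. On the log2 scale these were changes of -1.46, -1.46 and -0.84. At the luminal label the ratio of Psmb8 was 1.45 (1.3 to 1.61), while those of Psmb10, 1.09 (0.934 to 1.28), and Psmb9, 1.18 (0.910 to 1.53), had intervals that held 1.

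The constitutive partners changed less. Psmb5 had 50.9 and 55.4 FPKM at the basal label and 40.2 and 51.2 at the luminal label, and its ratio at the basal label was 1.09 (0.995 to 1.19). Psmb6 (0.913) and Psmb7 (0.801) were somewhat lower with baicalin there. Psmb8 made up 27.3% of the summed FPKM of Psmb8 and Psmb5 in basal DMSO (25.6 to 29.0) and 10.2% in basal baicalin (9.18 to 11.3), against 17% and 18.8% at the luminal label. Psmb10 made up 29.7% of its pair in basal DMSO (27.7 to 31.7) and 14.5% in basal baicalin (12.7 to 16.6), against 22% and 25.3%. Psmb9 made up 3.54% of its pair in basal DMSO and 1.51% in basal baicalin, against 2.03% and 2.73%. The inducible share was thus lower with baicalin at the basal label in every pair, with intervals that did not overlap. At the luminal label each share was higher by value, and the intervals of each pair of libraries overlapped. The size of a share depends on exon length, taken over all annotated transcripts, which was 3381 bases for Psmb8 and 3660 for Psmb9. Their longest open reading frames had 831 and 660 bases. By fragments, Psmb8 had 1280 and Psmb5 908 in basal DMSO. The direction of a difference between libraries does not depend on these lengths.

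**Figure D2:**
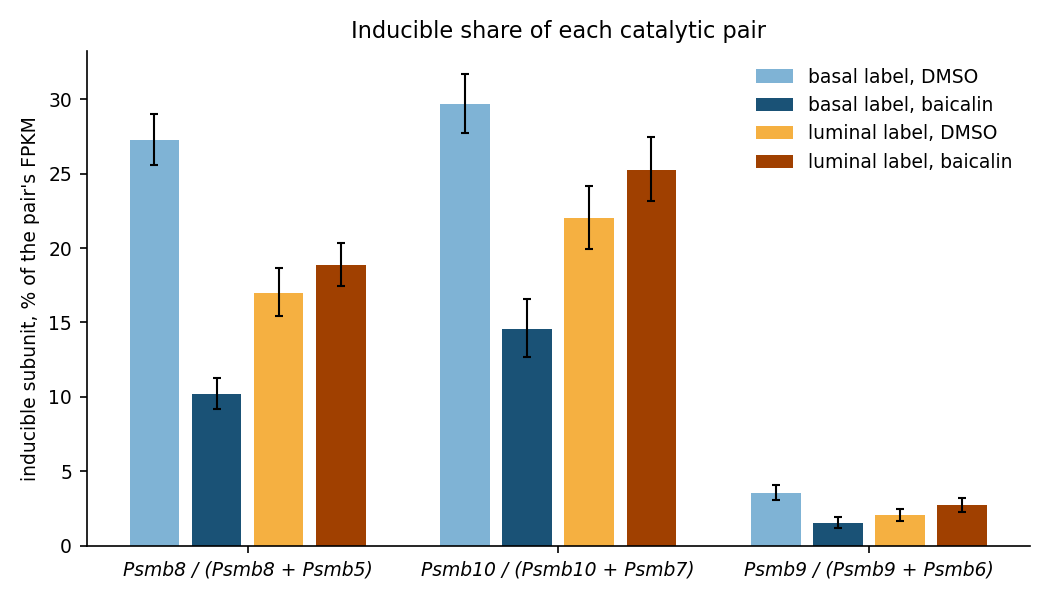
Share of the inducible subunit in the summed FPKM of each catalytic pair, in percent from 0, with 95% exact binomial intervals (counting error only), 1 library per bar. The Psmb8 share goes from 27.3% to 10.2% at the basal label and from 17% to 18.8% at the luminal label.

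By the GENCODE annotation, Psmb9 and Tap1 start 211 bases apart on opposite strands. The RefSeq starts behind the promoter windows differ, at 34187330 for Psmb9 and 34187556 for Tap1. Psmb9, Tap1, Psmb8 and Tap2 lie within 34335 bases of chromosome 17 (chr17:34181987-34216321). Their values differed all the same. Tap1 FPKM over Psmb9 FPKM was 3.64 in basal DMSO and 8.50 in basal baicalin, and 5.51 and 5.07 at the luminal label. The size of this ratio depends on the exon lengths, while its differences between libraries do not. Psmb9 shared 4.19% of its 50-base words with Tap1, where their transcripts overlap, and Psmb8 shared 11.6% with Gm20496, an antisense gene listed at 0 in every library.

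Nlrc5, the class I transactivator, had the lowest level of the 10 genes in each library. It had 1.55 FPKM in basal DMSO, 0.424 in basal baicalin, 0.949 in luminal DMSO and 1.21 in luminal baicalin, which rest on 261, 73, 156 and 213 fragments. Each step in this order of levels had an interval clear of 1. Its ratio at the basal label, 0.274 (0.208 to 0.356), was the lowest of the 10 genes, although with the pseudocount its log2 change of -0.84 was within the threshold. At the luminal label the ratio was 1.28 (1.04 to 1.58).

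By counting error, all 10 ratios at the basal label had intervals below 1, beside 26.3% of all genes. At the luminal label 6 of 10 intervals lay above 1, beside 22.9% of all genes, Tap1, Tap2, Psmb9 and Psmb10 being the others. No member passed the threshold at the luminal label, where 2.37% of all genes were higher and 1.59% lower past it. The opposite pattern with both intervals clear of 1 was found for 6 of 10 members (H2-K1, H2-D1, B2m, Tapbp, Psmb8 and Nlrc5) and for 5.21% of all genes. An interval clears 1 more easily with more fragments, so the interval shares, here and below, are not taken at the members' depth. Of the 14 constitutive 20S core subunits, 11 had intervals below 1 at the basal label and 1 above 1 at the luminal label. None of these subunits had the opposite pattern with both intervals clear of 1. The median log2 change of the members was -0.66 at the basal label and 0.22 at the luminal label, beside 0.0087 and -0.021 over all genes.

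**Figure D3:**
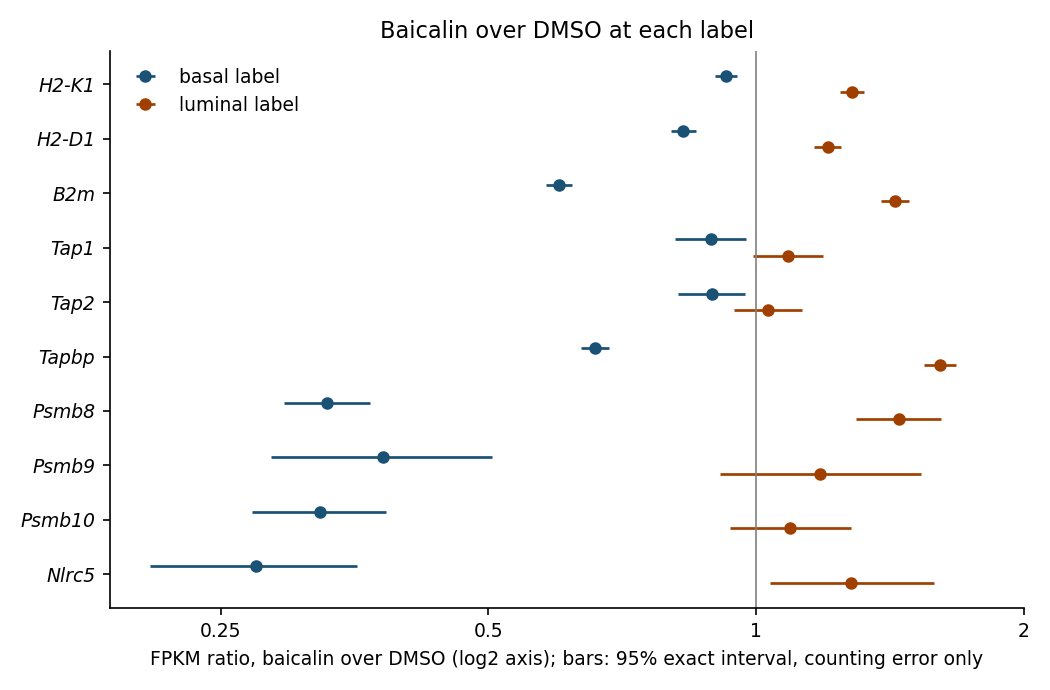
Ratio of baicalin to DMSO FPKM (log2 horizontal axis) for each gene at the basal and the luminal label, with 95% exact intervals for counting error, 1 library per condition. Every basal point lies below 1, from 0.274 (Nlrc5) to 0.925 (H2-K1), and every luminal point above 1, from 1.03 (Tap2) to 1.61 (Tapbp).

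The changes at the 2 labels were set against each other as a difference of log2 changes, basal minus luminal. It was below 0 for all 10 members, beside 45.2% of all genes. Their opposite directions, given above, already fix this sign, so it is no further result. The median was -1.01 for the members, beside 0.034 over all genes. Psmb8 had the largest difference, -1.95, followed by Psmb10 (-1.58), Tapbp (-1.27) and B2m (-1.25), and Tap2 the smallest, -0.20. The ratio of the 2 ratios had an interval below 1 for all 10 members, beside 22.3% of all genes, from 0.214 (0.151 to 0.302) for Nlrc5 to 0.864 (0.762 to 0.978) for Tap2. Only counting error enters these intervals, since each arm is 1 library.

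**Figure D4:**
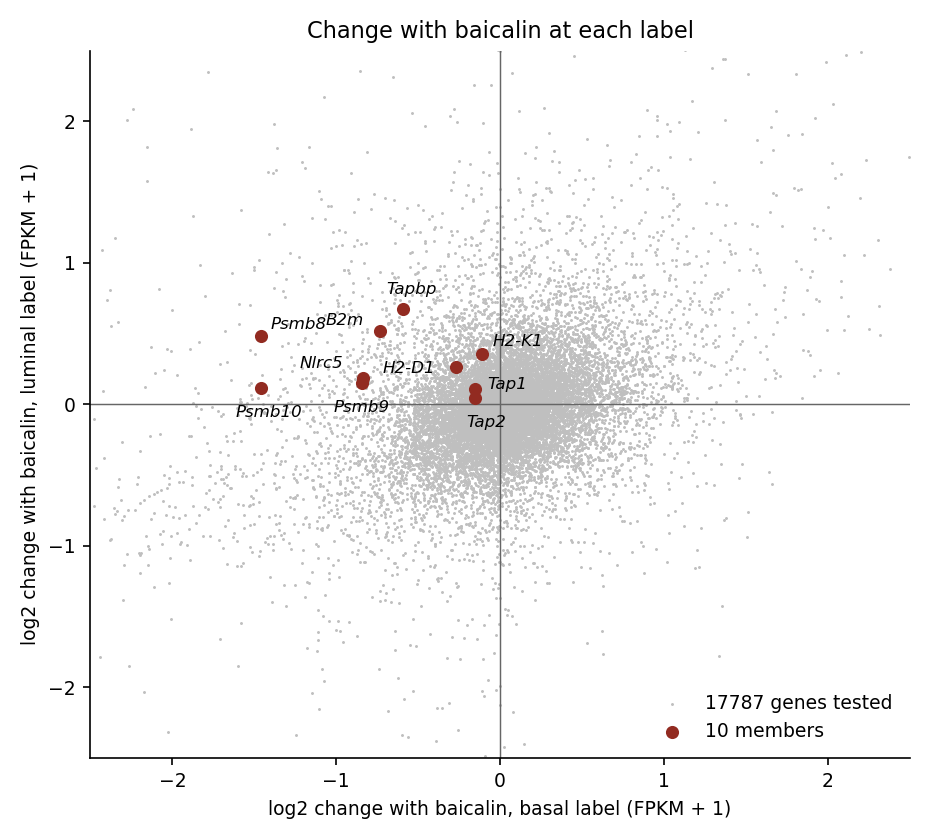
Log2 change with baicalin at the basal label (horizontal) against that at the luminal label (vertical), for 17787 genes in grey and the 10 members in red, with 105 genes outside the axes. All 10 members lie in the upper left part (lower at the basal, higher at the luminal label), Psmb8 (-1.46, 0.48) and Psmb10 (-1.46, 0.12) farthest to the left.

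Between the labels, all 10 members were lower in luminal DMSO than in basal DMSO, beside 47.5% of all genes, and 9 intervals lay below 1 (not Tap1), beside 30.1%. Psmb8, with a ratio of 0.431 (0.389 to 0.477), was past the threshold, as were 3.86% of all genes in that direction. With baicalin all 10 were higher in the library labelled luminal, beside 45.2% of all genes, with 9 intervals above 1 (not Tap2), beside 25.8%, and none past the threshold, which 5.24% of all genes passed. The largest ratio was that of Nlrc5, 2.87 (2.19 to 3.79), and the smallest those of H2-D1 (1.05), H2-K1 (1.06) and Tap2 (1.06). These comparisons share their libraries with those of baicalin, so they are not further evidence. In all, 9 of 10 members had their highest value in basal DMSO, beside 23% of all genes. The lowest value was in basal baicalin for Tap1, Tap2, Psmb8, Psmb9, Psmb10 and Nlrc5, and in luminal DMSO for H2-K1, H2-D1, B2m and Tapbp.

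Other genes of the pathway were read from lists of known roles, with the threshold shares of all genes given above. Of 15 other class I and class I-like chains tested, 7 were higher and 8 lower at the basal label, none past the threshold, and 9 were higher and 6 lower at the luminal label, where Fcgrt (8.33 to 2.90 FPKM) was past it. H2-T23, a ligand of NK cell receptors, had 50.9, 38.6, 43.5 and 46.2 FPKM in the order basal DMSO, basal baicalin, luminal DMSO and luminal baicalin, and H2-T22 had 15.1, 10.8, 12.1 and 12.3. H2-Q4 had 29.6, 28.3, 16.9 and 25.2 FPKM. Mr1, which presents vitamin metabolites to T cells, went the other way, with 3.66, 6.08, 6.67 and 5.69 FPKM. H2-M3 was like it by value, with 1.86, 3.15, 3.74 and 3.10. At the luminal label the baicalin to DMSO ratio of H2-M3, 0.829 (0.620 to 1.11), had an interval that held 1.

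Among the genes of peptide trimming and loading, of which 15 of 16 listed were found and tested, 10 were lower and 5 higher in each pair of libraries. Erap1, the aminopeptidase that trims peptides in the endoplasmic reticulum, had 17.1 FPKM in basal DMSO and 7.61 in basal baicalin, a ratio of 0.444 (0.414 to 0.477), and 16.8 and 15.7 at the luminal label. It was the gene past the threshold at the basal label, and Tapbpl, a relative of tapasin, at 13.3 and 28.8 FPKM, the one at the luminal label. Lap3, a cytosolic aminopeptidase, was lower in both pairs, at 40.6 and 24.1 FPKM and at 37.9 and 23.1. Blmh, a cytosolic peptidase, had 11.4, 8.12, 14.8 and 13.1 FPKM in the order used above.

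Psme1 and Psme2, the subunits of the PA28 activator that caps the proteasome, were lower at the basal label and nearly level at the luminal label. Psme1 had 57.9 and 31.3 FPKM, a ratio of 0.540 (0.506 to 0.577), and then 38.6 and 35.6. Psme2 had 50.8 and 26.2 FPKM, a ratio of 0.516 (0.476 to 0.559), and then 28 and 27. Of the 14 constitutive 20S core subunits 12 were lower at the basal label and 11 at the luminal label, none past the threshold, with medians of -0.24 and -0.093. The largest of these changes were those of Psma4 (60.4 to 41.1 FPKM), Psma6 (135.8 to 103.6) and Psma7 (51.7 to 41.3) at the basal label. Pomp, which helps to assemble the core, had 20.7 and 15.4 FPKM there.

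Interferon-gamma acts through its receptor and Irf1 on most of the 10 genes. Of 20 interferon pathway genes tested of 25 listed, 16 were lower and 4 higher at the basal label, and Usp18, Irf7 and Stat2 were among those lower past the threshold. Usp18, a feedback inhibitor of interferon signalling, had 13.1 and 1.15 FPKM there, Irf7 had 15.3 and 2.30, and Stat2 had 16.9 and 6.21. These 3 were lower with baicalin at the luminal label as well, unlike the members, with 0.648 and 0.260 FPKM for Usp18, 2.49 and 0.975 for Irf7, and 5.43 and 4.39 for Stat2. At the luminal label 10 of the 20 were higher and 10 lower, none past the threshold. The members' opposite pattern was found for 7 of the 20 by value and for 3 with both intervals clear of 1. Irf1 had the pattern of the members, with 18.2 FPKM in basal DMSO, 9.94 in basal baicalin, 10.4 in luminal DMSO and 15.5 in luminal baicalin. The receptor genes Ifngr1 (22.5, 19.5, 13.0 and 18.3 FPKM) and Ifngr2 (23.7, 22, 9.40 and 13.4) shared only the opposite changes with baicalin. Unlike the members, they were lower at the luminal than at the basal label under baicalin. That ratio was 0.938 (0.862 to 1.02) for Ifngr1 and 0.609 (0.564 to 0.659) for Ifngr2. Ifng itself was listed at 0 in every library.

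Of 13 genes of the factors that act at class I promoters, the partners of Nlrc5 and the NF-kB family, 8 were lower and 5 higher at the basal label, none past the threshold, and 7 were lower and 6 higher at the luminal label. Nfkb2 had 47.5 and 39.3 FPKM at the basal label and 20.2 and 36.3 at the luminal label. Nfkbia, the inhibitor that NF-kB induces, had 149.8, 125.9, 51.6 and 113.6 FPKM and was past the threshold at the luminal label. Nfkb1 had 16.7, 12.6, 18.5 and 18.5 FPKM, and Nfyc, a subunit of the factor that binds CCAAT, 12.8, 9.0, 16.2 and 13.4. Class II genes were low: 4 of 9 listed were tested, H2-Aa and H2-Ab1 were at most 0.0827 and 0.253 FPKM, and Cd74, the class II invariant chain, had 0.179, 0.455, 0.513 and 3.30.

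**Figure D5:**
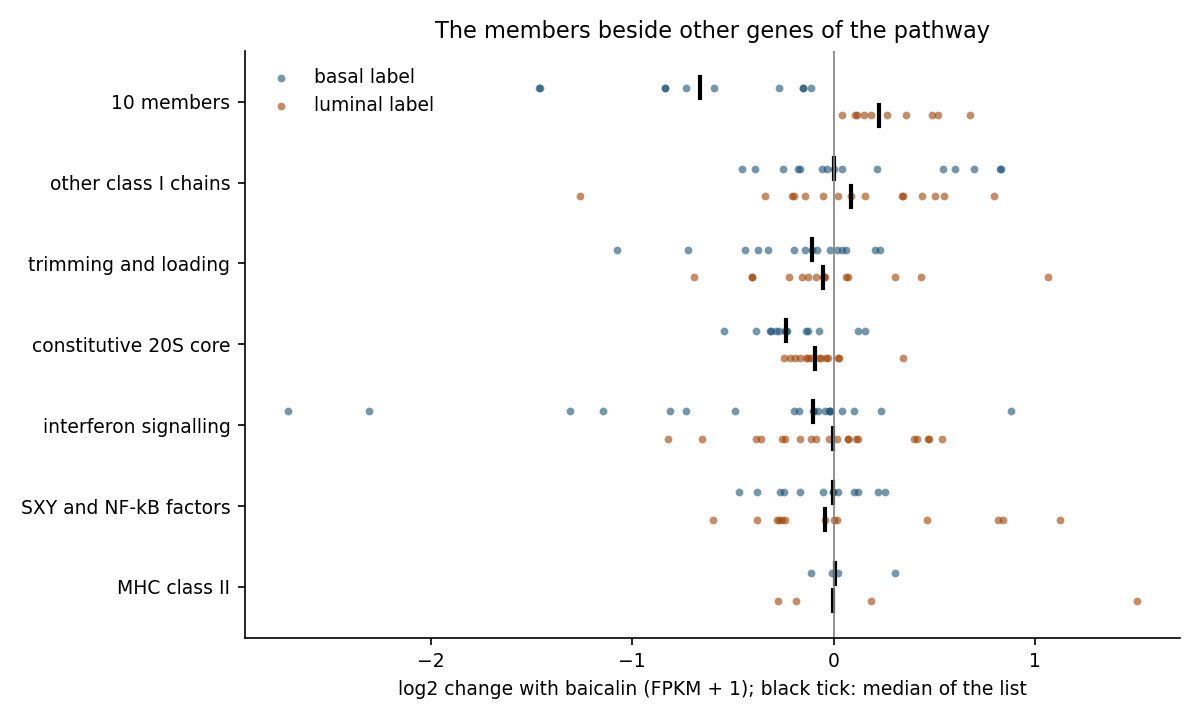
Log2 change with baicalin of each tested gene in the members and 6 lists, at the basal label and at the luminal label, with the list's median as a black tick. The members' medians are -0.66 and 0.22, while those of the 20S core are -0.24 and -0.093.

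Other cell markers moved too, and their part in the result was not tested. The summed FPKM of the 10 basal markers was 1761, 479, 5404 and 7199 in the order basal DMSO, basal baicalin, luminal DMSO and luminal baicalin, and Krt5, Krt14, Krt17 and Trp63 had the members' opposite pattern with both intervals clear of 1. The 10 luminal markers summed to 4306, 2964, 1262 and 1066 FPKM, and none had that pattern. The 8 fibroblast markers were low, with sums of 7.43, 3.32, 11.3 and 9.93 FPKM. Dcn, Lum, Col1a1 and Col1a2 had the pattern, Lum with 1 fragment in basal baicalin. The 12 immune markers summed to 18.1, 54.6, 6.03 and 18.1 FPKM, nearly all from Cd68 (7.49, 51.5, 4.44 and 13.7) and Lyz2 (8.84, 2.17, 0.903 and 2.61), of which Lyz2 had the pattern. By value, 4 of the 5 immune markers tested had the pattern, beside 17.7% of all genes. Cd79a, one of them, had 1.07, 0.778, 0.567 and 1.40 FPKM. Csf1r, another, had 0.340, 0.0908, 0.0317 and 0.0496 FPKM, from 39, 11, 4 and 6 fragments. Cd3e, Itgam and Adgre1 were at most 0.0449 FPKM, and the 7 endothelial markers summed to at most 4.64 FPKM. Housekeeping genes were not level either: of 12, Ywhaz, Gusb and Pgk1 had the members' pattern with both intervals clear of 1. At the basal label Gapdh went from 6.52 to 34.8 FPKM, Ppia from 291 to 155 and Rplp0 from 975.5 to 1381, and the median log2 change of the 12 was -0.11 there and -0.0007 at the luminal label.

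By position, 7 of the 10 genes lie on chromosome 17 within 1351601 bases, B2m on chromosome 2, and Psmb10 and Nlrc5 on chromosome 8, 11504089 bases from end to end. Within 50 kb of a member's start the annotation had 61 other genes, of which 32 were tested. Of these 11 were lower at the basal label and 19 higher at the luminal label, 8 had both, and none was lower past the threshold. The shares of all genes for the first 3 counts are 49.1%, 45.6% and 17.7%, as above. The opposite pattern with both intervals clear of 1 was found for 1 of the 32, and their median log2 changes were 0.13 and 0.034.

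Genes outside the members with a mean of at least 5 FPKM were ranked by likeness to the members' mean pattern over the 4 libraries. The nearest, by Euclidean distance of centred log2(FPKM + 1), were Phldb1 (0.0498), Anxa2 (0.0804), Mob3a (0.107), Gm21399 (0.156) and Gpr161 (0.162). Anxa2, which encodes a membrane-binding annexin, had 429, 253, 283 and 358 FPKM in the order used above. With 4 libraries the distance describes likeness of values and nothing more. The members themselves lay between 0.185 (B2m) and 0.593 (Psmb10) from their own mean.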

How the data were processed

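RNA-seq of the 4 libraries was analysed from one deposited table. Per the study's methods, the authors aligned reads of oligo (dT) mRNA with HISAT2 to GRCm38, counted them with featureCounts on an Ensembl annotation and deposited FPKM; the submitters' processing notes also name Bowtie 0.12.2 and the build mm8. Exon lengths came from GENCODE on GRCm38. FPKM times length gave whole fragments (within 0.1) for 99.3 to 99.5% of low genes, and for 7 of the 10 members in all libraries, the others being off by up to 0.46 and rounded. Genes above 0 in all libraries (17787) were kept, with a pseudocount of 1 FPKM and a threshold of 1 (log2). Background intervals of the ratio of ratios used the Poisson error on the log scale. Genes outside the members were named as the 3 with the largest basal change per list among those of at least 5 FPKM, with others a statement turned on (Fcgrt, Tapbpl and Nfkbia were chosen after their values were seen), and some genes under this rule are not reported here. The members and lists were chosen with earlier results of these data known. The computation ran in Python 3.11.15 with scipy 1.17.1, pandas 2.3.3, numpy 2.4.6 and, for plots, matplotlib 3.10.9, and was tested on simulated data. No protein sequence was used, so likeness is by bases. Alternatives were other pseudocounts, filters and thresholds, TPM, centring and protein-coding genes.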

Additional observations from a re-analysis of the deposited data

Results flagged for a closer look

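The change with baicalin went opposite ways at the 2 labels, with each interval on its own side of 1, for the genes given here as basal minus luminal log2 change. The difference was not tested, since each arm is 1 library. Of the members, the values were -1.95 for Psmb8, -1.27 for Tapbp, -1.25 for B2m, -1.02 for Nlrc5, -0.54 for H2-D1 and -0.47 for H2-K1. Of the interferon and NF-kB genes, Nfkbia had -1.37, Irf1 -1.35, Nfkb2 -1.08, Ifngr1 -0.66 and Ifngr2 -0.58. Of the other class I chains, H2-T23 had -0.47, while Mr1, at 0.80, was higher at the basal label and lower at the luminal label. Of the basal cell markers, Krt5 had -5.27, Krt17 -2.86, Trp63 -2.52 and Krt14 -2.28. The luminal cell marker Gata3 had 0.65. Of the fibroblast markers, Col1a1 had -1.49, Dcn -1.09, Col1a2 -0.97 and Lum -0.52, and the immune marker Lyz2 had -2.56. The value of Lum rests on 1 fragment in basal baicalin and 10 in basal DMSO, too few to read a fold. Of the housekeeping genes, Gusb had -0.52, Pgk1 -0.48 and Ywhaz -0.35.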

How the results depend on the processing

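The directions of the 10 members in all comparisons held in TPM and with centring on the median ratio, while counts past the threshold did not hold. The other settings were a pseudocount of 0.1 FPKM or none, no filter, a filter of 1 FPKM and a background of protein-coding genes. These cannot change the direction of a gene, so they are no check of it. At the basal label 4 members in place of 2 were lower past it with a pseudocount of 0.1, with none and in TPM, where a pseudocount weighs less on Psmb9 and Nlrc5, and 0 at a threshold of 2. Between labels under baicalin 1 member in place of 0 was higher past it in those 3 settings. Between labels under DMSO 2 in place of 1 were lower past it in TPM and 0 at a threshold of 2. Of the other pathway genes, 3 in place of 1 were lower past it at the luminal label with a pseudocount of 0.1 or none, 2 in TPM and 0 at a threshold of 2, and at the basal label 2 in place of 5 at a threshold of 2. In TPM the differences of H2-K1 and H2-D1 between labels under baicalin shrank to 0.010 and 0.0054. Of 320 single-gene values, 303 moved by less than their counting interval. Many of these could not move, since the filters, the protein-coding background and the threshold leave a gene's own log2 change as it was. The 17 that moved came from the pseudocounts and TPM. No paired analysis was possible because each group has 1 library, so the groups share 1 replicate number and no library could be left out; a fit of treatment with label as a block, averaging over both labels with 1 residual degree of freedom, was not run. Depth limits Psmb9 and Nlrc5, with as few as 70 and 73 fragments.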
